A study of Mus musculus with 6 samples.

Results

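Smooth muscle contractile genes were followed in whole mouse lung as 9 named genes, *Acta2*, *Actg2*, *Myh11*, *Mylk*, *Cnn1*, *Tagln*, *Lmod1*, *Des* and *Synpo2*, chosen by name for what their proteins do in the contractile cell. The choice was made with earlier results of these data known. The named genes are 9 of the 54532 genes in the count table, and all 9 were among the 18689 genes with 0.5 CPM or more in 1 or more libraries, the genes that were tested (CPM, counts scaled to the same library total). Lungs came from 3 WT and 3 ISM1-KO mice of 2 months, all untreated, with 1 library per mouse. ISM1 (isthmin 1) is a secreted protein, and the ISM1-KO line is a knockout of its gene. The WT mice were C57BL/6J mice bought from a supplier and the ISM1-KO mice were bred in-house on the C57BL/6J background, so that the effect of genotype and that of where the mice came from cannot be told apart. The lungs were perfused to remove blood, and the RNA is that of all remaining cells of the organ.

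Smooth muscle lies in the lung around the airways and in the walls of arteries and veins. Its cells shorten when calcium activates the myosin light chain kinase, the kinase phosphorylates the light chain of smooth muscle myosin, and the myosin then pulls on filaments of smooth muscle actin. The actin filaments carry calponin, transgelin and leiomodin, and are tied to desmin filaments and to dense bodies that pass the force on to the cell's surface. The genes of these proteins are switched on together in mature smooth muscle by myocardin with serum response factor, which binds a DNA element named the CArG box. Several of these genes are also read in pericytes, myofibroblasts or heart muscle.

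Of the 9 genes, 1 fell in the ISM1-KO lungs and none rose. *Cnn1*, which encodes calponin 1, was at 59.3% of its WT mean. *Actg2*, *Acta2* and *Myh11*, the smooth muscle actins and the smooth muscle myosin heavy chain, had means of 66.7%, 78.6% and 80.3% of WT without passing the test, while *Tagln*, *Mylk*, *Des*, *Lmod1* and *Synpo2* had means between 92.6% and 105% of WT. Genotypes were compared by the quasi-likelihood test of edgeR, p was adjusted over all genes tested by the Benjamini-Hochberg method, and a gene was called at an adjusted p under 0.1. By that rule 4.72% of all genes tested were called, 3.34% as lower and 1.38% as higher in ISM1-KO lungs. The median log2 fold change (ISM1-KO over WT) was −0.11 over the 9 genes and 0.0043 over all genes tested, of which the middle 90% lay between −0.51 and 0.46. In whole tissue, fewer smooth muscle cells and less RNA per smooth muscle cell cannot be told apart.

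The libraries held between 37606133 and 42345042 counts, of which the 9 genes together took 0.104% to 0.129%. *Ism1* itself (ENSMUSG00000074766) was still read in every library, with 3098, 3215 and 2975 counts in WT lungs and 2784, 2508 and 2953 counts in ISM1-KO lungs. The ISM1-KO libraries were all below the WT libraries, but the log2 fold change was only −0.19 (SE 0.0709, adjusted p = 0.217 in edgeR). The transcript level is therefore no check of the genotype labels here, and the design of the knockout allele is not given in the sources used here.

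**Figure D1:**
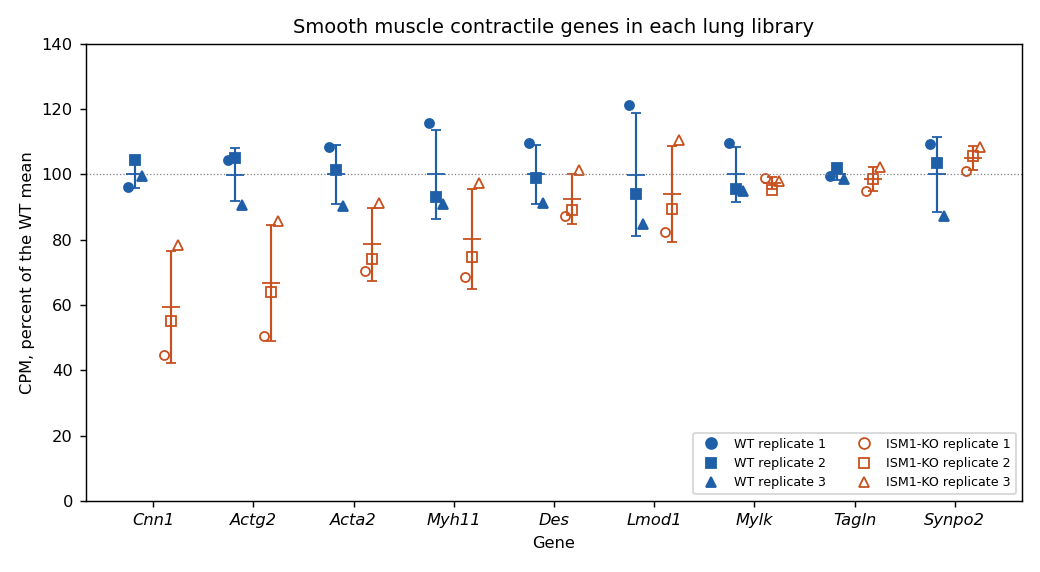
CPM of each of the 9 genes in each of the 6 libraries, as a percentage of that gene's WT mean, with filled blue symbols for WT, open orange symbols for ISM1-KO, 1 symbol shape per replicate number, and the mean ± SD of 3 libraries per genotype. All 3 ISM1-KO libraries lie below all 3 WT libraries for *Cnn1* and *Actg2*, and the genotypes overlap for the other 7 genes.

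*Acta2* (ENSMUSG00000035783, chr19:34241090-34255336, minus strand) encodes the alpha actin of smooth muscle. Its CPM was 128, 120 and 107 in WT lungs and 83.3, 87.7 and 108 in ISM1-KO lungs. ISM1-KO replicate 3 stood just above WT replicate 3, and the other ISM1-KO libraries were below all WT libraries. The means were 118 ± 10.8 and 93.1 ± 13.3 CPM (SD, n = 3 each), a log2 fold change of −0.35 (SE 0.102, unadjusted 95% interval −0.58 to −0.12) that missed the threshold in edgeR (adjusted p = 0.121).

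*Actg2* (ENSMUSG00000059430, chr6:83512905-83536265, minus strand) encodes the gamma actin of smooth muscle, which is known best from the gut and other hollow organs. Its CPM was 15.8, 15.9 and 13.7 in WT lungs and 7.62, 9.65 and 12.9 in ISM1-KO lungs, from 324 to 658 counts per library. The genotypes did not overlap, with the highest ISM1-KO library close below the lowest WT library. The log2 fold change was −0.59 (SE 0.166, unadjusted 95% interval −0.96 to −0.21), just outside the threshold in edgeR (adjusted p = 0.108).

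Both actin genes were within the threshold when the counts were compared by DESeq2, with an adjusted p of 0.0281 for *Acta2* and 0.014 for *Actg2*, and when ISM1-KO replicate 3 was left out of the edgeR fit, with an adjusted p of 0.0177 and 0.0134. Over all alternative fits the adjusted p ran from 0.00558 to 0.347 for *Acta2* and from 0.0028 to 0.294 for *Actg2*, with the log2 fold change below 0 in each. Actin genes are alike in sequence, but none of the 2046 windows of 150 bases, the length of a read, in the protein-coding transcripts of *Acta2* and none of the 1607 windows of *Actg2* occurred in a transcript of another gene of GENCODE release M21. The actins of non-muscle cells, *Actb* and *Actg1*, had log2 fold changes of 0.05 (SE 0.0675) and 0.04 (SE 0.0747), with an adjusted p of 0.798 and 0.871 in edgeR. The skeletal alpha actin gene *Acta1* had 0 to 7 counts per library. The cardiac actin gene *Actc1*, also read in the heart muscle sleeve of mouse pulmonary veins, had 153, 71.2 and 83.2 CPM in WT lungs and 41.6, 56.5 and 67.4 CPM in ISM1-KO lungs (log2 fold change −0.89, SE 0.262, adjusted p = 0.12 in edgeR).

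*Myh11* (ENSMUSG00000018830, chr16:14194535-14291372, minus strand) encodes the myosin heavy chain of smooth muscle and is the gene most used to tell smooth muscle from other cells with contractile actin. Its CPM was 190, 152 and 149 in WT lungs and 112, 123 and 160 in ISM1-KO lungs. WT replicate 1 was the highest of the 6 libraries, and ISM1-KO replicate 3 lay between it and the other WT libraries, so that the genotypes overlapped. The log2 fold change was −0.32 (SE 0.132, unadjusted 95% interval −0.61 to −0.02, adjusted p = 0.274 in edgeR). It was −0.48 without ISM1-KO replicate 3 (adjusted p = 0.0411) and −0.20 without WT replicate 1 (adjusted p = 0.556).

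*Mylk* (ENSMUSG00000022836, chr16:34745210-35002420, plus strand) encodes the myosin light chain kinase and, from other starts, a longer kinase of non-muscle cells and the short protein telokin, which a count per gene does not separate. Its CPM was 588, 512 and 510 in WT lungs and 531, 511 and 527 in ISM1-KO lungs. Apart from WT replicate 1 the libraries lay within a narrow range. The log2 fold change was −0.04 (SE 0.0678, unadjusted 95% interval −0.19 to 0.11, adjusted p = 0.852 in edgeR). Antisense genes that overlap *Mylk* had means of 314 and 149 counts against 20943 for *Mylk*.

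*Cnn1* (ENSMUSG00000001349, chr9:22099216-22109630, plus strand) encodes calponin 1, which binds actin, restrains the myosin and is among the later genes switched on as smooth muscle matures. It had 1417, 1695 and 1506 counts in WT lungs and 743, 817 and 1195 counts in ISM1-KO lungs, which are 37.6, 40.8 and 38.9 CPM against 17.5, 21.5 and 30.6 CPM. The WT libraries were close together, and the ISM1-KO libraries were all lower and more spread out, with replicate 3 nearest to WT. The means were 39.1 ± 1.64 and 23.2 ± 6.74 CPM (SD, n = 3 each), a log2 fold change of −0.75 (SE 0.163, unadjusted 95% interval −1.12 to −0.39, adjusted p = 0.0466 in edgeR). It fell by less than 2-fold, the size of change that the study asked for in addition. Together with the threshold, 0.567% of all genes tested and 0 of the 9 genes reached 2-fold in edgeR. DESeq2 gave *Cnn1* an adjusted p of 0.000156. In the 6 edgeR fits that left out 1 library each, the log2 fold change of *Cnn1* lay between −1.005 and −0.58, and the gene was called in 2 of them. The adjusted p was 0.146 without WT replicate 2, 0.114 without WT replicate 3, 0.11 without ISM1-KO replicate 1 and 0.16 without ISM1-KO replicate 2, fits in which 0.806% to 1.83% of all genes were called.

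*Tagln* (ENSMUSG00000032085, chr9:45929619-45936058, minus strand) encodes transgelin, a relative of calponin that bundles actin filaments. Its CPM was 123, 126 and 122 in WT lungs and 118, 122 and 127 in ISM1-KO lungs. These were the closest values of any of the 9 genes, and the WT libraries all lay within the range of the ISM1-KO libraries. On the log2 scale the change was −0.02 (SE 0.0547, unadjusted 95% interval −0.14 to 0.10, adjusted p = 0.909 in edgeR). *Tagln* overlaps *Pcsk7* by 108 bases and the antisense gene Gm48529, which had means of 2155 and 612 counts against 4856 for *Tagln*. Without a stated strand setting of the counting, reads of the overlaps cannot be assigned with certainty.

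*Lmod1* (ENSMUSG00000048096, chr1:135324807-135368065, plus strand) encodes leiomodin 1, which starts new actin filaments in smooth muscle. Its CPM was 16.7, 12.9 and 11.7 in WT lungs and 11.3, 12.3 and 15.2 in ISM1-KO lungs. The libraries of each genotype spread over most of the range of the other. The log2 fold change was −0.09 (SE 0.149, unadjusted 95% interval −0.42 to 0.24, adjusted p = 0.843 in edgeR), an interval that reaches past the values of *Acta2* and *Myh11*.

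*Des* (ENSMUSG00000026208, chr1:75360329-75368579, plus strand) encodes desmin, the intermediate filament of muscle cells, which is made in heart muscle and in pericytes as well as in smooth muscle. Its CPM was 135, 122 and 112 in WT lungs and 108, 110 and 125 in ISM1-KO lungs. The genotypes overlapped, with the order of the libraries as for *Acta2* apart from ISM1-KO replicate 3. On the log2 scale the change was −0.11 (SE 0.082, unadjusted 95% interval −0.29 to 0.07, adjusted p = 0.574 in edgeR).

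*Synpo2* (ENSMUSG00000050315, chr3:123076519-123236149, minus strand) encodes synaptopodin 2 (myopodin), an actin-binding protein of muscle. Its CPM was 56.8, 53.7 and 45.3 in WT lungs and 52.5, 55.0 and 56.3 in ISM1-KO lungs. It was the 1 gene of the 9 with a higher mean in ISM1-KO lungs, within the range of the WT libraries. On the log2 scale the change was 0.07 (SE 0.0854, unadjusted 95% interval −0.12 to 0.26, adjusted p = 0.755 in edgeR).

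**Figure D2:**
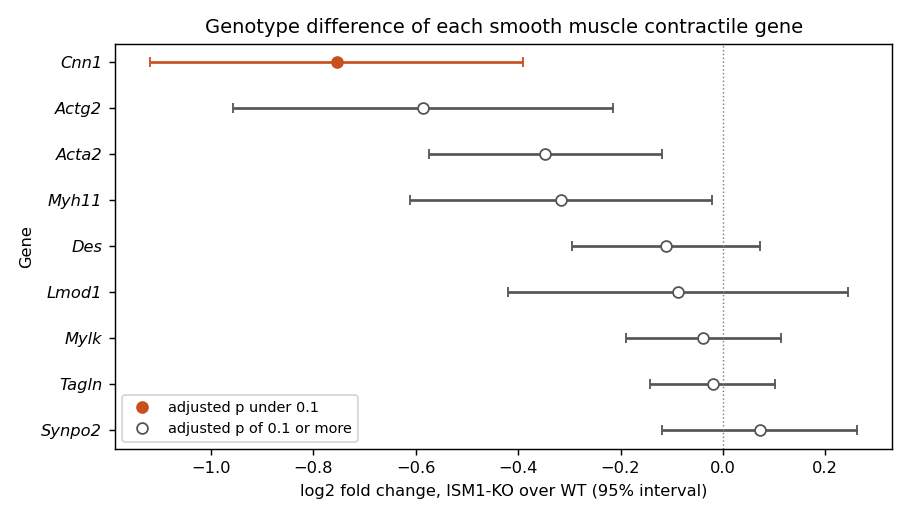
Log2 fold change of each of the 9 genes, ISM1-KO over WT, from the edgeR fit of 6 libraries, with unadjusted 95% intervals and a filled symbol for a gene with an adjusted p under 0.1. The intervals of *Cnn1*, *Actg2*, *Acta2* and *Myh11* lie below 0 and those of the other 5 genes include it, while only *Cnn1* passed the threshold after adjustment.

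At an unadjusted p under 0.05, 4 of the 9 genes passed in edgeR, all lower in ISM1-KO lungs, where 15.8% of all genes tested passed in either direction and 9.30% passed as lower. The libraries of the genotypes did not overlap for 2 of the 9 genes, *Cnn1* and *Actg2*, where 12.3% of all genes tested had every ISM1-KO library below every WT library and 21.6% had no overlap in either direction. The count of called genes depended on the fit. DESeq2 called *Acta2*, *Actg2* and *Cnn1* as lower, as it did 4.75% of all genes for which it gave an adjusted p. The edgeR fit without ISM1-KO replicate 3 called these and *Myh11* as lower, against 4.84% of all genes tested, and the edgeR fit without a filter on low counts called the same 4 genes, against 3.34%.

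The order of the libraries was alike across most of the 9 genes. WT replicate 1 was the highest of the 6 libraries for 6 of the genes, and ISM1-KO replicate 1 was the lowest for 7. Among the ISM1-KO libraries, replicate 3 was the highest for 8 of the 9 genes, all but *Mylk*. The CPM summed over the 9 genes was 1291, 1156 and 1110 in WT lungs and 1040, 1051 and 1161 in ISM1-KO lungs, so that ISM1-KO replicate 3 lay above WT replicates 2 and 3.

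Ratios to *Tagln* within a library set the genes against each other without any scaling between libraries. The ratio of *Cnn1* to *Tagln* counts was 0.305, 0.324 and 0.320 in WT lungs and 0.149, 0.177 and 0.242 in ISM1-KO lungs. The ratio of *Actg2* to *Tagln* was 0.128, 0.126 and 0.112 in WT lungs and 0.0648, 0.0792 and 0.102 in ISM1-KO lungs. The ratio of *Acta2* to *Tagln* was 1.04, 0.953 and 0.877 in WT lungs and 0.709, 0.720 and 0.855 in ISM1-KO lungs. None of these 3 ratios overlapped between genotypes, and their ISM1-KO means were 59.8%, 67.3% and 79.6% of the WT means. *Myh11* and *Des* relative to *Tagln* overlapped, with means of 81.1% and 93.8% of WT. Relative to *Acta2*, *Cnn1* counts were 0.293, 0.340 and 0.364 in WT lungs and 0.210, 0.245 and 0.283 in ISM1-KO lungs, again without overlap. *Tagln* itself was at 98.6% of its WT mean, so the ratios to it largely repeat the CPM of the same genes. The ratios are a description, no test was made of them, and their overlap was not counted over all genes.

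**Figure D3:**
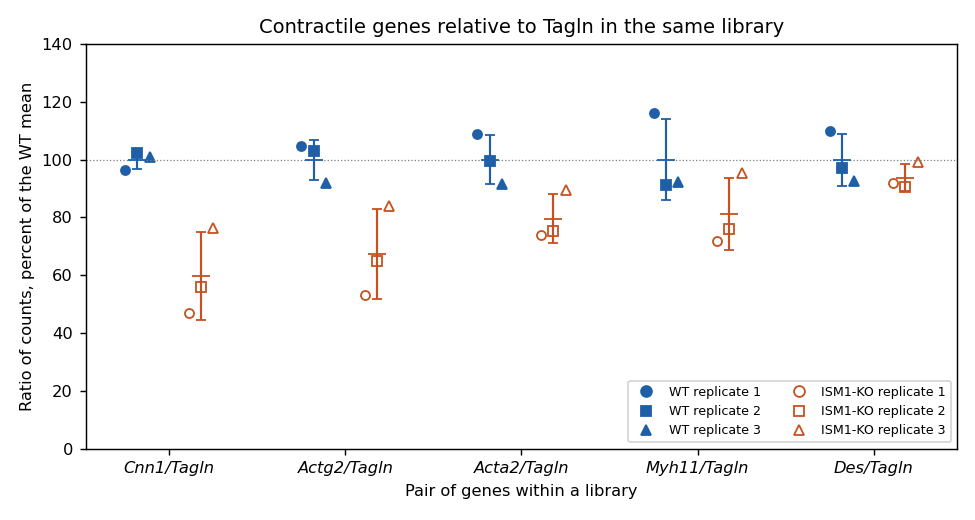
Ratio of the counts of *Cnn1*, *Actg2*, *Acta2*, *Myh11* and *Des* to those of *Tagln* in the same library, as a percentage of the WT mean ratio, with filled blue symbols for WT, open orange symbols for ISM1-KO and the mean ± SD of 3 libraries per genotype. The ISM1-KO libraries lie below all WT libraries for the first 3 ratios, with means of 59.8%, 67.3% and 79.6%, and overlap with WT for *Myh11* and *Des*.

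Levels of different genes were compared as the deposited FPKM. The listed gene lengths give these FPKM only for *Acta2* and *Lmod1*. *Mylk*, listed with 11263 bases and at 537 CPM in the WT mean, has a higher FPKM than that length would give. So has *Cnn1*, with 2736 bases and 39.1 CPM. The length used in FPKM is not given, and the order between genes depends on it. *Mylk* was the highest in WT lungs with a mean of 229 FPKM, followed by *Tagln* with 128, *Des* with 79.6, *Acta2* with 66.6, *Cnn1* with 35.7, *Myh11* with 31.4, *Actg2* with 16.6, *Synpo2* with 11.2 and *Lmod1* with 3.49 (n = 3 each). In ISM1-KO lungs the means were 222, 126, 73.3, 52.0, 21.0, 25.0, 11.0, 11.7 and 3.27 FPKM in the same order of genes. In these FPKM *Cnn1* thus stood above *Myh11* in the WT order and below it in the ISM1-KO order, as *Actg2* did with *Synpo2*. Another length per gene could change either order. The neighbours *Cnn1* and *Myh11* overlapped between libraries in both genotypes, with 34.3, 37.2 and 35.6 FPKM for *Cnn1* and 36.3, 29.1 and 28.6 FPKM for *Myh11* in WT lungs. In ISM1-KO lungs, *Cnn1* had 16.0, 19.6 and 27.5 FPKM and *Myh11* had 21.5, 23.4 and 30.0 FPKM. *Actg2* and *Synpo2* overlapped in ISM1-KO lungs, with 8.38, 10.6 and 14.0 FPKM for *Actg2* and 11.4, 11.9 and 12.0 FPKM for *Synpo2*. All other neighbours in the order of either genotype were apart in all libraries of that genotype.

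**Figure D4:**
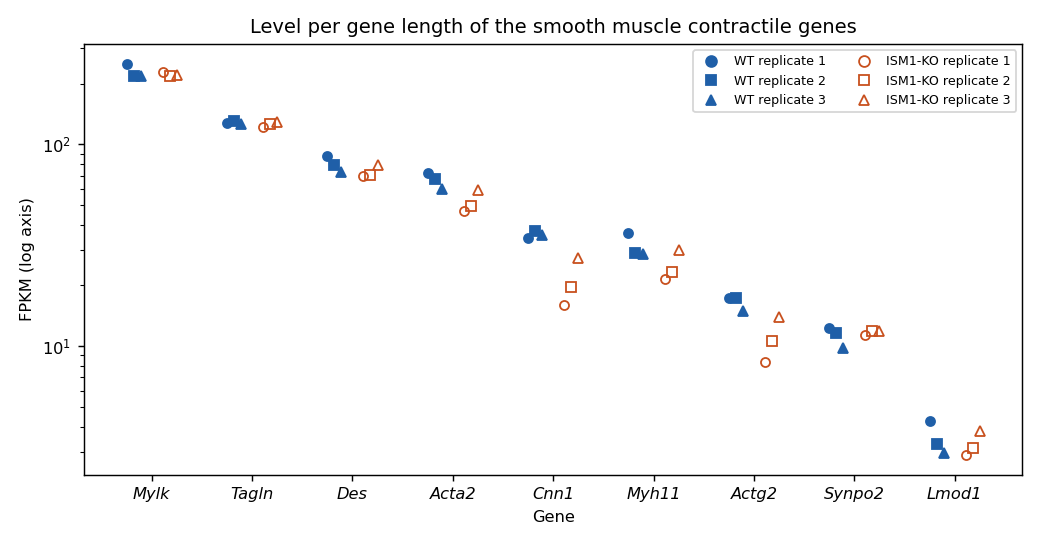
FPKM of the 9 genes in each library on a log axis, in the order of their WT means, with filled blue symbols for WT, open orange symbols for ISM1-KO and 1 symbol shape per replicate number. The levels run from 229 FPKM for *Mylk* to 3.49 FPKM for *Lmod1* in the WT mean, and *Cnn1* is above *Myh11* in the WT mean and below it in the ISM1-KO mean. The order between genes depends on the length used in FPKM, which is not given.

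Sequence upstream of the start is shown for the gene that fell, *Cnn1*, for *Acta2*, the gene on which the CArG box of smooth muscle is known best, and for *Synpo2*, which did not pass the test. The sequences are those of RefSeq on GRCm38.p6, 5′ to 3′ on the gene's own strand, and stop before the first transcribed base. The search was for the CArG box, a sequence of 10 bases with 6 middle bases that are A or T, and for the same sequence with 1 of the 6 middle bases changed to G or C, on both strands. Capitals mark the matches. The *Acta2* stretch is chr19:34255374-34255623 (minus strand), that of *Cnn1* is chr9:22099003-22099215 (plus strand) and that of *Synpo2* is chr3:123236150-123236399 (minus strand).
Acta2: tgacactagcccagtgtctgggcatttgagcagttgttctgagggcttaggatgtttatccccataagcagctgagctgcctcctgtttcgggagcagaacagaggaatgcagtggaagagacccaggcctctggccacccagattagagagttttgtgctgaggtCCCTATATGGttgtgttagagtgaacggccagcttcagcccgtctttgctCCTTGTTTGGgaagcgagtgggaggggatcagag
Cnn1: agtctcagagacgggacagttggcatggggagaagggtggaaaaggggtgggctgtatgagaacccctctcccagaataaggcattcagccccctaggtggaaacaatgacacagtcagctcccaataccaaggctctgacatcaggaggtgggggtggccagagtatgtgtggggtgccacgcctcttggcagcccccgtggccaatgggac
Synpo2: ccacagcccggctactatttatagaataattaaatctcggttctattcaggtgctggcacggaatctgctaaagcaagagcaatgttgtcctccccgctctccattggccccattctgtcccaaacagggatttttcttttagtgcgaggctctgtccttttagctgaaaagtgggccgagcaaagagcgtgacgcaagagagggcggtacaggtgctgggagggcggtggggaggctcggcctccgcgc
The *Acta2* stretch held 2 matches with 1 changed base, CCCTATATGG starting 84 bases and CCTTGTTTGG starting 34 bases before the RefSeq start, and no full match. The stretches of *Cnn1* and *Synpo2* held neither, nor did the corresponding ones of *Des* (chr1:75360042-75360291) and *Lmod1* (chr1:135324563-135324806). The stretches of *Cnn1* and *Lmod1* were cut to 213 and 244 bases, and their full 250 bases before the RefSeq start held neither match. Over 32851 mouse promoters and the full 250 bases, 1.47% held a full match, 7.24% held a match with 1 changed base and 8.59% held either. A missing match says only that these letters are not in the stretch searched, since elements that lie farther off or in an intron were not looked at.

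Other genes of the same machinery were compared as lists. In the list of other contractile apparatus, which holds tropomyosins, light chains, linker proteins, myosin phosphatase and kinases that act on it, 1 of 27 genes rose and 0 fell in edgeR, with a median log2 fold change of −0.01. The gene that rose was *Rock2*, a kinase that keeps the light chain phosphorylated by inhibiting its phosphatase, with 214, 214 and 221 CPM in WT lungs and 249, 242 and 278 CPM in ISM1-KO lungs (log2 fold change 0.24, SE 0.064, adjusted p = 0.0851). It was called in 1 of the 6 fits with a library left out, that without ISM1-KO replicate 3. At an unadjusted p under 0.05, 5 of the 27 genes passed in edgeR, 4 of them lower, against 15.8% of all genes tested, 9.30% as lower. DESeq2 called 1 higher and 1 lower, against 2.70% and 4.75% of all genes with an adjusted p. *Tpm2*, the beta tropomyosin on the actin filament, had 56.1, 53.5 and 50.9 CPM in WT lungs and 35.0, 44.1 and 51.0 CPM in ISM1-KO lungs (log2 fold change −0.30, adjusted p = 0.235 in edgeR), an order of ISM1-KO libraries like that of *Acta2*. *Pcp4l1* and *Pdlim3*, the latter a protein of muscle Z-lines, had log2 fold changes of −0.29 and −0.21, with an adjusted p of 0.139 and 0.175 in edgeR. The CPM summed over this list was 6430 to 6637 in WT lungs and 6547 to 6873 in ISM1-KO lungs.

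Of 15 transcription regulators of smooth muscle genes, 0 were called in edgeR and 0 in DESeq2, and 4 had an unadjusted p under 0.05 in edgeR, 2 of them lower, against 15.8% and 9.30% of all genes tested. Their median log2 fold change was 0.04. *Myocd*, which encodes myocardin, had 5.09, 3.16 and 2.48 CPM in WT lungs and 2.52, 2.37 and 2.15 CPM in ISM1-KO lungs (log2 fold change −0.60, SE 0.249, adjusted p = 0.269 in edgeR), with WT replicate 1 far above the rest and WT replicate 3 within the ISM1-KO range. *Heyl*, a target of Notch signalling in mural cells, had a log2 fold change of −0.25 with no overlap between genotypes (adjusted p = 0.176 in edgeR). *Foxf1*, a regulator of lung mesenchyme and endothelium, and *Mkl1*, a cofactor of serum response factor that responds to actin, had log2 fold changes of 0.21 and 0.25, with an adjusted p of 0.271 and 0.301 in edgeR.

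Among 20 receptors of contraction and relaxation, 2 fell and 0 rose in edgeR, with a median log2 fold change of −0.11 and 6 genes at an unadjusted p under 0.05, all lower, against 9.30% of all genes tested. *Adra1a*, the alpha-1A adrenergic receptor, had 37.8, 32.3 and 30.4 CPM in WT lungs and 25.0, 21.9 and 25.3 CPM in ISM1-KO lungs (log2 fold change −0.48, SE 0.0945, adjusted p = 0.0355 in edgeR). *Chrm3*, the muscarinic receptor through which acetylcholine contracts airway smooth muscle, had 3.74, 4.63 and 4.29 CPM in WT lungs and 2.68, 2.87 and 3.08 CPM in ISM1-KO lungs (log2 fold change −0.55, SE 0.148, adjusted p = 0.0903 in edgeR). Neither gene overlapped between genotypes, and they were called in 3 and 2 of the 6 edgeR fits that left out 1 library. The serotonin receptor gene *Htr2b* and the oxytocin receptor gene *Oxtr* had log2 fold changes of −0.72 and −2.05 without passing the test (adjusted p = 0.238 and 0.228 in edgeR), and *Oxtr* was below 0.5 CPM in all libraries but WT replicate 3, which had 1.34 CPM.

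Of 25 genes of calcium handling, channels and the cGMP pathway, 2 rose and 2 fell in edgeR. The median log2 fold change was −0.02, with 15 genes below 0 and 10 above. At an unadjusted p under 0.05, 13 of the 25 passed in edgeR, 8 of them lower, against 15.8% and 9.30% of all genes tested. *Pln*, *Cacna1h*, *Casq2* and *Atp2a2* had log2 fold changes of −1.13, −1.08, −0.95 and −0.47 without being called, each highest in WT replicate 1. Without that library they were −0.54, −0.34, −0.34 and −0.24 (adjusted p = 0.462, 0.404, 0.712 and 0.27 in edgeR). The summed CPM of the cardiomyocyte markers below was also highest in WT replicate 1. The part of heart muscle in the values of these genes was not tested. *Plcb1*, a phospholipase that releases the calcium signal downstream of contractile receptors, rose from 41.4, 44.4 and 48.4 CPM in WT lungs to 68.1, 64.9 and 77.8 CPM in ISM1-KO lungs (log2 fold change 0.65, SE 0.0854, adjusted p = 0.0108 in edgeR), and leaving out any 1 of the 6 libraries kept it called. *Pde3a*, a cyclic nucleotide phosphodiesterase, rose by a log2 fold change of 0.22 (adjusted p = 0.0974 in edgeR). *Mrvi1*, whose protein lets cGMP-dependent kinase block calcium release, had 16.1, 11.9 and 13.2 CPM in WT lungs and 8.40, 8.70 and 9.69 CPM in ISM1-KO lungs (log2 fold change −0.62, SE 0.124, adjusted p = 0.0366 in edgeR). *Abcc9*, a subunit of the ATP-sensitive potassium channel of mural cells, fell as well (log2 fold change −0.43, adjusted p = 0.0657 in edgeR). With 1 library left out, *Mrvi1* was called in 4 of the 6 fits, *Pde3a* in 2 and *Abcc9* in 1. *Plcb1* and *Pde3a* are also read in cells other than smooth muscle, which whole lung does not separate.

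Markers of other cells that share genes with smooth muscle, or that lie beside it, were measured in the same libraries. Of 15 cardiomyocyte markers tested, of 16 listed, 1 fell (*Myl7*), and all 15 had a log2 fold change below 0, with a median of −0.99. At an unadjusted p under 0.05, 13 of the 15 passed in edgeR, all lower, against 9.30% of all genes tested. The edgeR fit without a filter on low counts called 13 of the list as lower and that without ISM1-KO replicate 3 called 5, against 3.34% and 4.84% of all genes. DESeq2 called 0. The summed CPM of the tested markers was 1937, 670 and 788 in WT lungs and 375, 515 and 713 in ISM1-KO lungs, so that WT replicate 1, the library with the highest *Acta2*, *Myh11* and *Des*, stood apart from all others. The atrial light chain gene *Myl7* had 95.9, 40.5 and 50.4 CPM in WT lungs and 20.1, 29.4 and 37.0 CPM in ISM1-KO lungs (log2 fold change −1.11, SE 0.302, adjusted p = 0.097 in edgeR). The ventricular light chain gene *Myl2* had 0 to 9 counts per library and was not tested. *Myl7* was not called by DESeq2 (adjusted p = 0.18), and of the 6 edgeR fits with a library left out only that without ISM1-KO replicate 3 called it. Without WT replicate 1 the median of the cardiomyocyte markers was −0.46 and none was called in edgeR, while the log2 fold change of *Cnn1* was −0.78 (adjusted p = 0.0788 in edgeR) and that of *Acta2* was −0.28 (adjusted p = 0.264). The cardiac genes *Myh6*, *Ryr2*, *Actn2* and *Sln* had log2 fold changes of −1.13, −0.99, −1.11 and −1.20, with an adjusted p of 0.181, 0.116, 0.119 and 0.108 in edgeR. The part of heart muscle in the values of *Des* and the other genes was not tested.

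Of 15 skeletal muscle markers, 7 passed the filter and 1 of these fell, *Tnnt3* (log2 fold change −0.81, adjusted p = 0.071 in edgeR), which of the fits with a library left out only that without ISM1-KO replicate 3 called, while *Myh4* and *Myog* were at 0 counts in every library. Their summed CPM was 51.8 to 117 in WT lungs and 26.4 to 47.4 in ISM1-KO lungs, most of it from *Mb* and *Ckm*, which heart muscle also makes (log2 fold changes −1.20 and −0.79, adjusted p = 0.138 and 0.249 in edgeR). *Mylpf*, of fast muscle, had a log2 fold change of 0.41 (adjusted p = 0.349 in edgeR).

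Of 10 pericyte markers, 2 rose and 0 fell in edgeR, against 1.38% and 3.34% of all genes tested, with a median log2 fold change of 0.03. Their summed CPM had a mean of 769.5 in WT lungs and 890.3 in ISM1-KO lungs (n = 3 each), and most of that gap was *Postn*, with means of 361 and 471 CPM. *Postn*, which encodes the matrix protein periostin, rose from 393, 335 and 356 CPM to 438, 473 and 501 CPM (log2 fold change 0.38, SE 0.0755, adjusted p = 0.0351 in edgeR), and *Gucy1a2*, a subunit of the nitric oxide receptor, rose by a log2 fold change of 0.43 (adjusted p = 0.094 in edgeR). They were called in 3 and 1 of the 6 fits with a library left out. *Higd1b* and *Cspg4* had log2 fold changes of 0.20 and 0.11, with an adjusted p of 0.184 and 0.511 in edgeR. *Rgs5* and *Vtn*, the 2 of the 10 below 0, had −0.11 and −0.08, and *Pdgfrb* and *Cox4i2* had 0.02 and 0.01. At an unadjusted p under 0.05, 3 of the 10 genes passed in edgeR, 0 of them lower, against 15.8% and 9.30% of all genes tested. DESeq2 called 2 higher and 0 lower, against 2.70% and 4.75% of all genes with an adjusted p.

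Of 15 fibroblast and myofibroblast markers, 6 fell and 0 rose in edgeR, against 3.34% and 1.38% of all genes tested, with a median log2 fold change of −0.17. With 1 library left out, 1 to 6 of the 15 were called as lower, 1 without ISM1-KO replicate 1 (median −0.0077) and 3 without ISM1-KO replicate 2 or WT replicate 3. Of all genes tested, 0.910%, 0.974% and 1.36% were called as lower in these fits, in that order. *Lgr6*, known from mesenchymal cells at the airway smooth muscle, had 19.9, 13.7 and 14.8 CPM in WT lungs and 8.77, 9.96 and 11.3 CPM in ISM1-KO lungs (log2 fold change −0.69, SE 0.149, adjusted p = 0.0466 in edgeR). *Pi16*, a marker of fibroblasts in the adventitia around vessels and airways, fell by 0.97 on the log2 scale (adjusted p = 0.00226 in edgeR) and stayed called whichever of the 6 libraries was left out. The matrix proteoglycan genes *Dcn* and *Lum* fell by 0.54 and 0.76 (adjusted p = 0.0328 and 0.0431 in edgeR). Above 0 were 6 of the 15 markers, with *Tcf21* (0.17) and *Npnt* (0.15) the highest and none called. The summed CPM of this list was 3773 to 4006 in WT lungs and 3698 to 3946 in ISM1-KO lungs.

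Markers of the structures that carry smooth muscle were counted as well. Of 10 airway epithelial markers, 6 fell and 0 rose in edgeR, against 3.34% and 1.38% of all genes tested. Their summed CPM was 23439 to 25370 in WT lungs and 15366 to 19270 in ISM1-KO lungs, with ISM1-KO replicate 3 again the nearest to WT. With 1 library left out, 1 to 7 were called as lower, 1 without WT replicate 2, 2 without ISM1-KO replicate 2 and 3 without ISM1-KO replicate 1 or WT replicate 3. Of all genes tested, 0.618%, 0.974%, 0.910% and 1.36% were called as lower in these fits, in that order. Limma on FPKM called 3, against 2.65% of all genes, and the median was below 0 in each fit. The 6 that fell included *Foxj1*, the regulator of cilia (log2 fold change −0.51, adjusted p = 0.0118 in edgeR), and the club cell genes *Scgb1a1*, *Cyp2f2* and *Scgb3a2* (log2 fold changes −0.51, −0.42 and −0.37, adjusted p = 0.027, 0.0214 and 0.0506 in edgeR). Of 5 cartilage markers tested, of 10 listed, 1 fell, *Chad* (log2 fold change −0.62, adjusted p = 0.00939 in edgeR), while the defining gene *Col2a1* was at most 0.584 CPM. Of 12 markers of large vessel endothelium, 1 rose and 0 fell in edgeR, the arterial regulator *Sox17* (log2 fold change 0.51, adjusted p = 0.0153), with 5 at an unadjusted p under 0.05, 1 of them lower, against 15.8% and 9.30% of all genes tested. DESeq2 called 2 higher and 0 lower, against 2.70% and 4.75% of all genes with an adjusted p. The median of that list was 0.12, and its summed CPM was 1286 to 1345 in WT lungs and 1457 to 1518 in ISM1-KO lungs. The part of fewer or more airways or vessels in the tissue taken was not tested.

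The outer surface and fat of the lung were checked for the same reason. All 8 adipocyte markers fell in edgeR, against 3.34% of all genes tested, with a median log2 fold change of −1.80. Their summed CPM was 179 to 228 in WT lungs and 38.6 to 101 in ISM1-KO lungs. DESeq2 called 7 of them, against 4.75% of all genes with an adjusted p, and gave the other marker no adjusted p. With 1 library left out edgeR called 3 to 8, with 3 without ISM1-KO replicate 2, 4 without ISM1-KO replicate 1 or WT replicate 2 and 5 without WT replicate 3. Of all genes tested, 0.974%, 0.910%, 0.618% and 1.36% were called as lower in these fits, in that order. The fat cell genes *Plin1*, *Cidec*, *Cfd* and *Fabp4* fell by 1.88, 0.90, 2.10 and 1.46 on the log2 scale (adjusted p = 0.0163, 0.0186, 0.0222 and 0.0327 in edgeR). Of 6 mesothelial markers, 1 rose, *Upk1b* (log2 fold change 0.35, adjusted p = 0.0817 in edgeR), which was called in 1 of the 6 fits with a library left out and not by limma on FPKM, and *Msln* had a log2 fold change of 0.44 (adjusted p = 0.104). The part of such tissue in the difference of *Cnn1* was not tested.

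**Figure D5:**
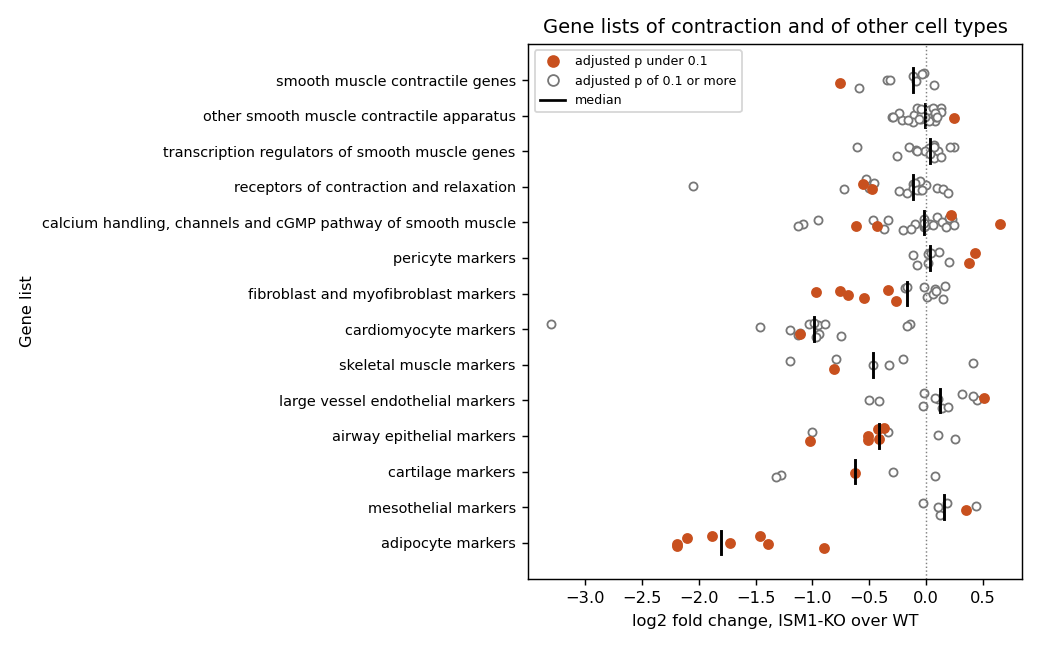
Log2 fold change, ISM1-KO over WT, of each tested gene in 14 lists, 1 symbol per gene, filled where the adjusted p is under 0.1 in edgeR, with a black bar at the median of each list. The medians of the lists of contraction lie between −0.11 and 0.04, that of the cardiomyocyte markers at −0.99, that of the airway epithelial markers at −0.42 and that of the adipocyte markers at −1.80.

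The genes whose pattern over the 6 libraries was most like the mean standardised log2 CPM of the 9 genes, out of those averaging 5 CPM or more, were *Fgf11*, *Ccdc138*, *Tagap1*, *Ppm1k*, *Tek* and *Kalrn*, with Pearson's r of 0.995, 0.990, 0.981, 0.976, 0.971 and 0.970. The likeness rests on 6 libraries shared by all genes and is a description. None of these genes was called in edgeR, and their log2 fold changes lay between −0.21 and −0.06.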

How the data were processed

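RNA of perfused whole lungs (3 WT and 3 ISM1-KO mice) was made into strand-specific poly-A libraries and sequenced as read pairs of 150 bases. The authors mapped the reads with STAR to GRCm38 (mm10), with CASAVA also named in the submitters' processing notes, and deposited raw counts per gene. The counting program, annotation release and strand setting are not given in the sources used here. Deposited beside them are FPKM values, in which counts are scaled to the library and to a length per gene. That length is not given, and for most of the contractile genes the listed gene length does not give these FPKM.

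Counts were compared in R 4.3.3 with edgeR 4.0.16 (TMM, quasi-likelihood test, two-sided, no covariates) over genes reaching 0.5 CPM in 1 library or more. CPM are TMM-normalized. Alternatives were DESeq2 1.42.0, limma 3.58.1 on log2(FPKM + 1), other scalings, filters and thresholds, the replicate number as a block, and leaving out each library. The fits were tested on simulated data. P-values measure the spread between mice of 1 age and source per genotype.

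Members and gene lists were chosen with earlier results of these data known. Named genes are the 9 members, *Ism1*, overlapping or paralogous genes, up to 4 genes of each list with the smallest p (for heart and skeletal muscle also the 2 most abundant), and the 6 genes most like the members. *Myl2*, *Myh4*, *Myog*, *Rgs5*, *Vtn*, *Pdgfrb*, *Cox4i2*, *Tcf21*, *Npnt*, *Pln*, *Cacna1h*, *Casq2* and *Atp2a2* were named after their values were seen. RefSeq promoters were matched by symbol for 6 of the 9 genes, and the *Mylk* entry, which starts inside the gene, was not printed.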

Additional observations from a re-analysis of the deposited data

How the results depend on the processing

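Of the 9 contractile genes, 1 was called in edgeR, and the same count was found with RLE or upper-quartile size factors, with stricter filters on low counts, with limma on FPKM and at an adjusted p under 0.05. The count was 3 with DESeq2, 4 without a filter on low counts, 0 when a 2-fold change was also required, and 0 to 4 when 1 library was left out, with 0 reached without ISM1-KO replicate 1 and without ISM1-KO replicate 2 and 4 without ISM1-KO replicate 3. WT replicates 2 and 3 also ended the call of *Cnn1* when left out. The cause of these differences was not tested. Fitting the replicate number as a block gave 2 called genes, *Cnn1* and *Actg2* (adjusted p = 0.0178 and 0.0839 in edgeR), against 3.78% of all genes called as lower. Mice with the same number are different animals and their deviations from the genotype means did not go together (r = −0.0405, 0.0310 and 0.00101), so the numbers do not pair the samples. The median log2 fold change of the 9 genes lay between −0.12 and −0.11 under the other alternatives and between −0.22 and −0.04 with 1 library left out. Direction turned only with a library left out, in genes near 0. The log2 fold change ran from −0.046 to 0.0078 for *Tagln*, from −0.22 to 0.074 for *Lmod1*, from −0.074 to 0.034 for *Mylk* and from −0.018 to 0.14 for *Synpo2*. Over all genes, 882 were called, and 1285 with DESeq2, 1105 with the block, 1632 without a filter, 455 at an adjusted p under 0.05, 106 with a 2-fold change, and 150 to 1470 with 1 library left out.

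With 3 mice per genotype, an exact permutation test of 1 gene cannot give a p under 0.1, so single genes rest on the spread shared across genes. The interval of *Lmod1*, with 452 to 629 counts per library, would hold a change of the size seen in *Acta2*. Bulk RNA gives no share of smooth muscle cells, and airway and vascular muscle were not separated.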
